A study of Mus musculus with 35 samples.

Results

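The 9 erythroid marker genes described here are the adult beta globins Hbb-bs and Hbb-bt, the adult alpha globins Hba-a1 and Hba-a2, and Slc4a1, Car2, Klf1, Alas2 and Ermap. They were chosen by name as genes of the red-cell lineage, and all 9 were found among the 55487 genes of each count table. They were read in 23 RNA libraries and 12 ribosome footprint libraries of mouse acute myeloid leukemia cells driven by the MLL-AF9 fusion. The cells carried a control guide (sgScramble) or a guide that knocks out Ogfod1 (sgOgfod1), which encodes a prolyl hydroxylase of a ribosomal protein. Recipients were male mice aged 8 to 10 weeks, each given GFP-positive leukemia cells by retro-orbital injection. All of the cells traced back to 1 terminally ill mouse and were expanded in culture. Vehicle mice received a standard amino acid (AA) diet and PBS. Treated mice received a diet free of branched-chain amino acids (BCAA) together with 5+3 chemotherapy, in which cytarabine (100 mg/kg) is given on 5 days and doxorubicin (3 mg/kg) on the first 3 of them. Diet and chemotherapy were given together, so their effects cannot be told apart, and the combination is called treatment. RNA came from 5 vehicle mice with sgScramble and 5 with sgOgfod1 cells, and from 7 treated mice with sgScramble and 6 with sgOgfod1 cells. Footprints came from 3, 3, 4 and 2 of these mice.

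Red cells form from marrow precursors that lose their nucleus and fill with hemoglobin, which pairs alpha with beta globin chains around heme. The transcription factor KLF1 binds CACCC-type sequences in the adult beta globin promoter and in many other red-cell genes. Alas2 makes the erythroid enzyme that starts heme synthesis, and Slc4a1 (band 3) exchanges anions across the red-cell membrane. Car2 encodes carbonic anhydrase II, which is abundant in red cells and is also made in other cells, among them osteoclasts and some other myeloid cells. Ermap encodes an erythroblast membrane protein of the immunoglobulin superfamily. Myeloid cells do not normally make hemoglobin. The marrow suspension was treated with ACK buffer for 5 min to lyse red cells, and viable GFP-positive cells were then sorted. The genes are protein-coding and lie, in GRCm38, at chr7:103826534-103828096 (Hbb-bs) and chr7:103812524-103813996 (Hbb-bt), at chr11:32283511-32284465 (Hba-a1) and chr11:32296489-32297298 (Hba-a2), and at chr11:102348824-102366203 (Slc4a1). Car2 lies at chr3:14886273-14900770, Klf1 at chr8:84901928-84905291, Alas2 at chrX:150547375-150570638 and Ermap at chr4:119175457-119190011. The beta globins, Slc4a1 and Ermap are on the minus strand and the others on the plus strand.

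The globin genes come in near-identical pairs, which decides how far each can be read on its own. The coding sequences of Hba-a1 and Hba-a2, 426 bases each, differed at 1 position, C381T, counted from the A of the start codon with the Hba-a1 base first. Those of Hbb-bs and Hbb-bt, 441 bases each, differed at 1 position, C417T, with the Hbb-bs base first. The 90 bases of each gene that hold the difference are shown from the GRCm38 genome, with the differing base in capitals.
Hba-a1: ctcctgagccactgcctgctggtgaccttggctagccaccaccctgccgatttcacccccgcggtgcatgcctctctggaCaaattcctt
Hba-a2: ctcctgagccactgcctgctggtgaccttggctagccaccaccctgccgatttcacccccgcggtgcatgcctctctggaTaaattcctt
Hbb-bs: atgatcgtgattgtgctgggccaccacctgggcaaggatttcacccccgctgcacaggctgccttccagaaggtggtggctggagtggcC
Hbb-bt: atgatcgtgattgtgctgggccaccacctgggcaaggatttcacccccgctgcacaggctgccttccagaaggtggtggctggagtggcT
The stretches are coding exon at chr11:32284263-32284352 (Hba-a1, plus strand), chr11:32297080-32297169 (Hba-a2, plus strand), chr7:103826692-103826781 (Hbb-bs, minus strand) and chr7:103812683-103812772 (Hbb-bt, minus strand). A ribosome footprint is about as long as the 28-base window used to measure sharing. Of the 28-base windows of the coding sequence, 93.0% of those of each alpha globin gene were also in the other, and 94.0% of those of each beta globin gene were in its partner. Over whole transcripts the shared part was smaller, from 59.6% in Hbb-bt to 91.7% in Hba-a2. Slc4a1, Klf1, Alas2 and Ermap shared no such coding window with another gene, and Car2 shared 3 of 753 with Car13.

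The pairs split their counts differently in the assays. In footprints, Hba-a1 held 1830 counts and Hba-a2 1842 over the 12 libraries, and the counts of the pair never differed by more than 8 in a library. Hba-a1 took 49.1% to 50.5% of the pair in every footprint library. In RNA the same genes held 483 and 338 counts. There the share of Hba-a1 ran from 0.0% to 100.0%, and in several libraries it rested on a handful of reads. Hbb-bs held 1318 and Hbb-bt 1144 footprint counts, with 50.8% to 59.6% for Hbb-bs. In RNA they held 2285 and 934 counts, a ratio of 2.45, and 1991 and 763 of these came from the vehicle sgOgfod1 mice. In treated sgScramble mice the order turned, with 14 counts of Hbb-bs and 48 of Hbb-bt, 39 of them in replicate 5. How reads that map to several genes were counted is not given in the sources used here, so the split within each pair is uncertain. The sum of a pair would repeat shared reads if these were counted to both genes, which was not tested.

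**Figure D1:**
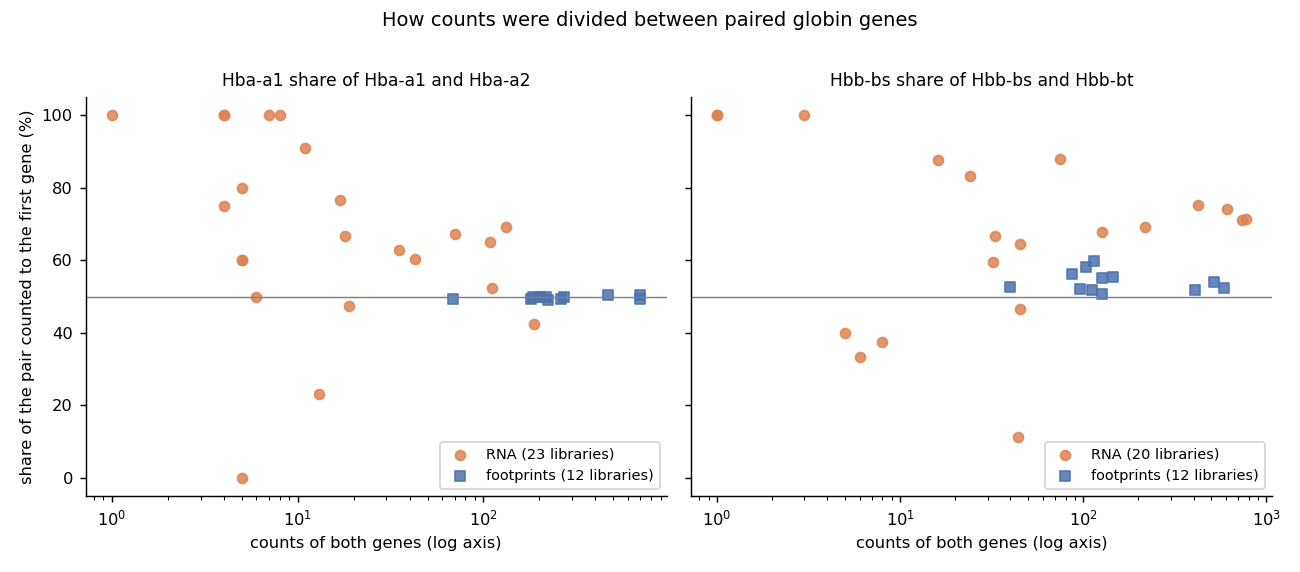
Share of each globin pair counted to its first gene (vertical axis, %) against the counts of both genes (log axis), 1 point per library, for the alpha pair (left) and the beta pair (right), with a line at 50%. Footprint libraries lie at 49.1% to 50.5% for Hba-a1 and 50.8% to 59.6% for Hbb-bs, while RNA libraries scatter from 0.0% to 100.0% and from 11.4% to 100.0%; 3 RNA libraries with no beta globin count are not drawn.

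The promoters of the beta globin pair are shown because this pair held the most globin counts in RNA. The sequences run from 250 bases before to 50 after the start in RefSeq (GRCm38.p6), minus strand, at chr7:103827879-103828178 for Hbb-bs and chr7:103813874-103814173 for Hbb-bt. Capitals mark 4 motifs searched on both strands. AGATAA is a motif of GATA factors. CCACACCC is a box of the type KLF1 binds. CCAAT is known as the box of that name. TATAAA is the TATA box.
Hbb-bs: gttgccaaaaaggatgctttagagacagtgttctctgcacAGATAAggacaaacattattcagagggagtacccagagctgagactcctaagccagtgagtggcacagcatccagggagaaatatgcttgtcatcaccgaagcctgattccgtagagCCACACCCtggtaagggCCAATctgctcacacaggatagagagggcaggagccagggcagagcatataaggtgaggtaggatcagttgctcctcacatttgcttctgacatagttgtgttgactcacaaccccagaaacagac
Hbb-bt: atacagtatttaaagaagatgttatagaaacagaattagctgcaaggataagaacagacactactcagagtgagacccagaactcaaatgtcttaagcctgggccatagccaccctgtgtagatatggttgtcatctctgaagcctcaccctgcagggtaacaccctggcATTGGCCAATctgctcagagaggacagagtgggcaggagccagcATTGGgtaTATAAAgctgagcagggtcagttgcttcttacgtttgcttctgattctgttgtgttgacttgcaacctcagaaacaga
Hbb-bs held AGATAA 210 bases before the start, CCACACCC at 93 and CCAAT at 76. Hbb-bt held CCAAT at 75, and at 80 and 36 on the other strand, the match at 80 adjoining that at 75, and TATAAA at 28. Of 32851 RefSeq promoters of this length, 3.6% held CCACACCC, 11.2% AGATAA, 37.4% CCAAT and 13.6% TATAAA. Promoters of 7 members were in the table, and Slc4a1 and Car2 were not. Hba-a1, Hba-a2 and Klf1 held CCAAT. On the other strand, the Alas2 window held AGATAA at 86 and TATAAA at 209, and Ermap held CCAAT at 245 and TATAAA at 31. These matches are descriptions of the sequence only.

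RNA libraries held 31.9 to 142.7 M (mega) counts and footprint libraries 5.71 to 14.6 M. A level of 3 counts corresponds to 0.0234 to 0.0885 CPM in RNA (CPM, counts per M of the library's scaled total) and 0.185 to 0.494 in footprints, and these limits cover counting error only. Ogfod1 RNA ran from 19.7 to 24.9 CPM in vehicle sgScramble and from 8.57 to 11.7 in vehicle sgOgfod1 mice, and from 12.3 to 31.6 against 3.75 to 13.0 under treatment, so the treated ranges overlapped. Ogfod1 footprints did not overlap between guides, at 12.3 to 17.5 CPM in sgScramble and 1.44 to 2.97 in sgOgfod1 mice. The 10 myeloid leukemia markers checked, such as Mpo, Itgam and Hoxa9, were all detected and summed to between 4011 and 8084 CPM in RNA. The 9 erythroid genes summed to between 1.46 and 31.2 CPM in all RNA libraries but treated sgScramble replicate 4, where they summed to 124.7. That library and treated sgOgfod1 replicate 3 stood apart from their groups, with a median Spearman correlation to their group of 0.908 and 0.940 against 0.954 to 0.98 in the others. For the 9 members, where a value named here moved by more than 1.5 times without one of these libraries, both values are given. Genes of the other lists were not checked in this way.

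Per length of exon, Car2 was the highest member in RNA at a mean of 3.67 CPM per kb, above 44.8% of the 14325 protein-coding genes tested, and Hbb-bs followed at 2.54. That order rested on treated sgScramble replicate 4, without which Hbb-bs stood at 2.66 and Car2 at 1.55 CPM per kb (a check chosen after seeing the data). Over all libraries Hbb-bt stood at 1.12, Hba-a1 at 0.504, Hba-a2 at 0.435 and Klf1 at 0.420. Alas2, Ermap and Slc4a1 were the lowest, at 0.210, 0.0620 and 0.0498. The means hide a wide spread over mice, so neighbours in this order do not differ beyond it. Footprints, per kb of coding sequence, gave another order. The alpha globins led, at 38.5 and 38.9 CPM per kb, above 84.5% and 84.6% of the 11461 coding genes tested, and the beta globins followed at 26 and 22.5. The other 5 members all lay below 1 CPM per kb. Counts of beta over alpha globin were 3.92 in RNA (3219 over 821) and 0.670 in footprints (2462 over 3672). The totals mix groups and cover 23 libraries in RNA and 12 in footprints, and 2754 of the 3219 beta globin RNA counts came from vehicle sgOgfod1 mice. By group, in RNA, beta over alpha was 2.98 in vehicle sgScramble, 4.51 in vehicle sgOgfod1, 1.32 in treated sgScramble and 1.82 in treated sgOgfod1 mice. In footprints it was 0.701, 0.830, 0.491 and 0.418 in the same order. It was above 1 in each group in RNA and below 1 in each group in footprints. Shared windows made up 71.9% and 91.7% of the alpha transcripts (Hba-a1, Hba-a2) and 67.1% and 59.6% of the beta transcripts (Hbb-bs, Hbb-bt). How shared reads were counted is not known for either assay, and its part in this contrast was not tested.

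**Figure D2:**
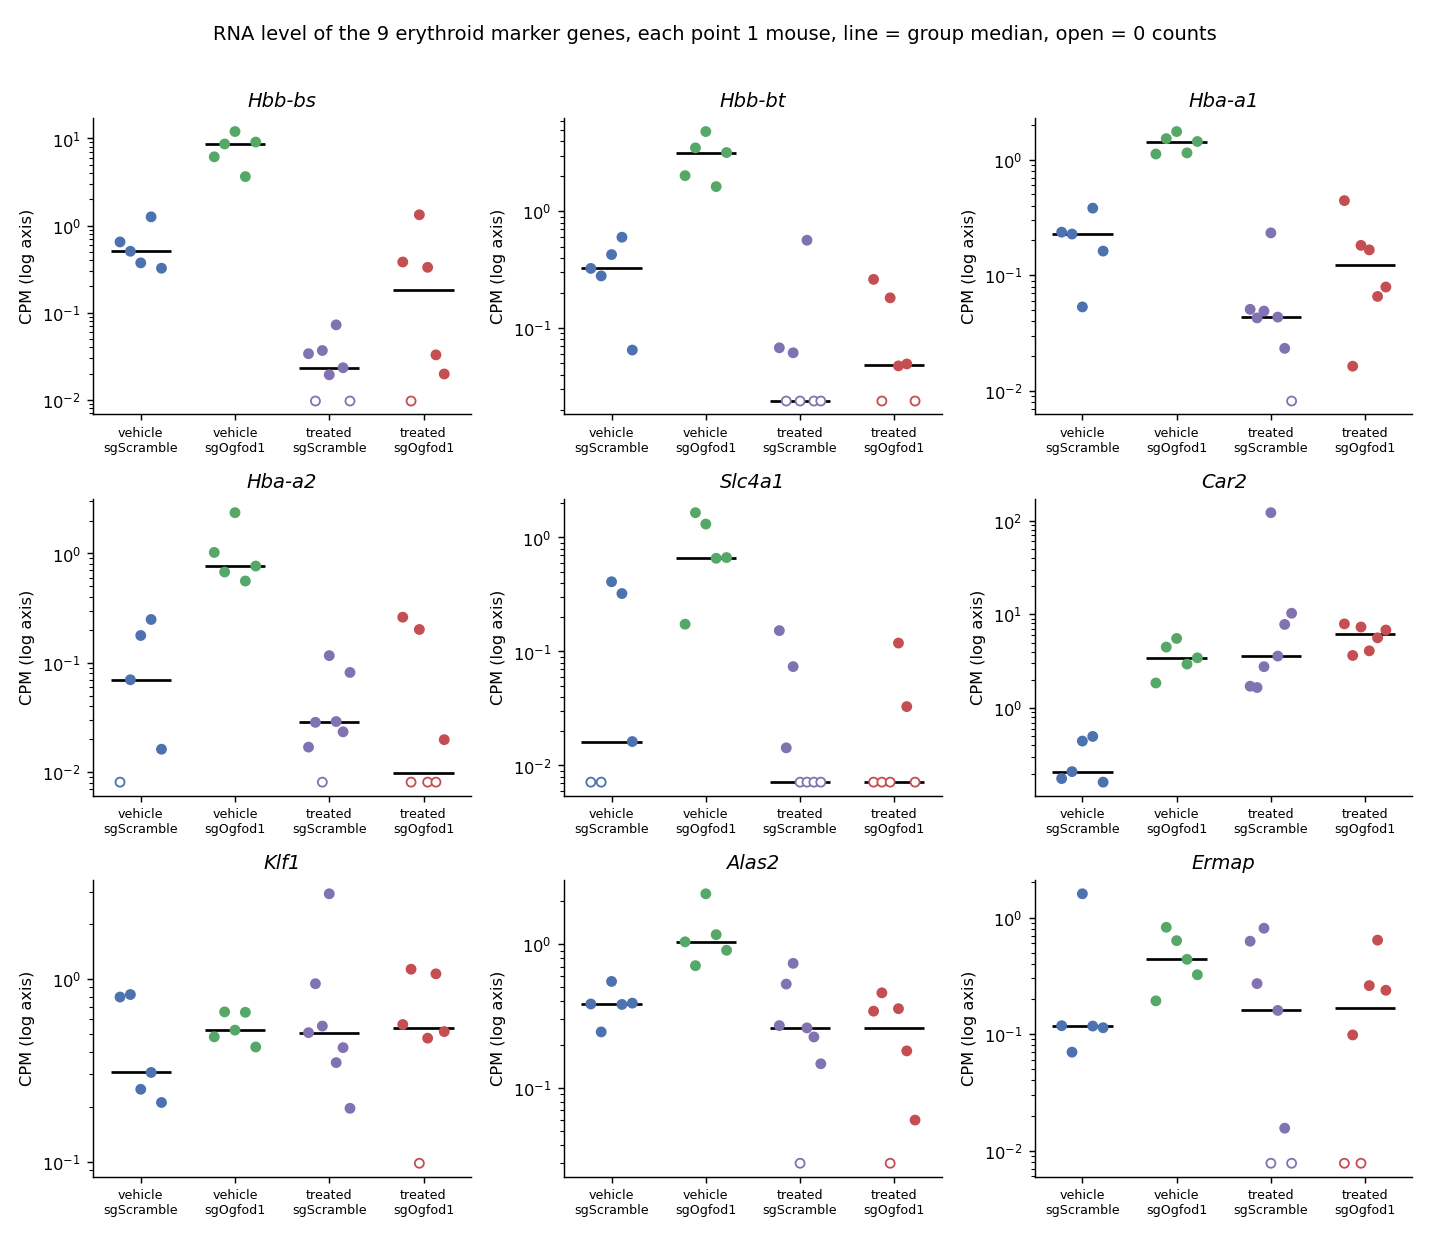
RNA level of each of the 9 genes in CPM on a log axis, 1 point per mouse, by group, with the group median as a line and open points for 0 counts. Hbb-bs lies between 3.65 and 12.0 CPM in all 5 vehicle sgOgfod1 mice and at or below 1.33 in every other mouse.

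Globin RNA was highest in vehicle sgOgfod1 mice and was low in treated mice of either guide. The sum of the 4 globins was 10.3, 14.3, 20.9, 6.98 and 14.5 CPM in the 5 vehicle sgOgfod1 mice, with a mean of 13.4 ± 5.23 (SD, n = 5). In the 5 vehicle sgScramble mice it was 1.21, 1.08, 1.03, 2.49 and 0.567, with a mean of 1.28 ± 0.721. It ran from 0.0701 to 0.711 with a median of 0.147 in the 7 treated sgScramble mice, and from 0.0164 to 1.90 with a median of 0.347 in the 6 treated sgOgfod1 mice. The vehicle sgOgfod1 mice lay above every other mouse, and the other 3 groups overlapped at least in part. In bulk samples, fewer cells of a type and less RNA per cell cannot be told apart.

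Treatment in sgOgfod1 mice was the comparison with most members past the threshold. Of the 9 genes, 6 fell, namely the 4 globins, Slc4a1 and Alas2, while Car2, Klf1 and Ermap did not pass (edgeR, adjusted p under 0.05 over all 21474 genes). Over all genes tested, 4.18% were called lower and 9.87% in either direction. The median log2 fold change of the 9 was -3.13, against -0.0022 over all genes. The 6 genes did not overlap between groups, with every treated mouse below every vehicle mouse, which held for 5.17% of all genes tested. Low genes can pass the filter on counts mainly through the group in which they are high, so this count is a description. Slc4a1 held 10 or more counts in 6 of 23 RNA libraries, while Hbb-bs did so in 13 and Alas2 in 19.

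Hbb-bs, an adult beta globin gene, stood at 6.15, 8.63, 12.0, 3.65 and 9.09 CPM in the vehicle sgOgfod1 mice. In the treated sgOgfod1 mice it ran from 0 to 1.33 with a median of 0.182 CPM, the highest being replicate 3. It fell by 4.51 ± 0.83 (SE) on the log2 scale (adjusted p = 0.00125), and the change was -5.72 without treated sgOgfod1 replicate 3. Hbb-bt, its partner, stood at 2.02, 3.50, 4.83, 1.63 and 3.19 CPM in vehicle and ran from 0 to 0.261 with a median of 0.0483 in treated mice. It fell by 5.06 ± 1.14 (adjusted p = 0.00626), and the change was -5.73 without treated sgOgfod1 replicate 1. All 5 vehicle mice carried more of either beta globin than any treated mouse.

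Hba-a1, an alpha globin gene, stood at 1.12, 1.52, 1.75, 1.14 and 1.43 CPM in vehicle sgOgfod1 mice, the tightest spread of the globins. Treated mice ran from 0.0164 to 0.442 with a median of 0.123 CPM, and the gene fell by 3.13 ± 0.72 (adjusted p = 0.00744). Without treated sgOgfod1 replicate 1 it fell by 3.75. Its partner Hba-a2 stood at 1.02, 0.677, 2.36, 0.560 and 0.768 CPM in vehicle and ran from 0 to 0.261 in treated mice, with 3 of 6 at 0 counts. It fell by 3.72 ± 1.07 (adjusted p = 0.0284), and the adjusted p was 0.0533 without vehicle sgOgfod1 replicate 1, 0.0945 without replicate 3 and 0.0569 without treated sgOgfod1 replicate 6. Without treated sgOgfod1 replicate 1 it fell by 4.55. The groups of either alpha globin did not overlap.

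Slc4a1, the anion exchanger, stood at 0.174, 1.65, 1.31, 0.657 and 0.667 CPM in vehicle sgOgfod1 mice. In treated sgOgfod1 mice it was at 0 counts in 4 of 6, with a highest value of 0.119 CPM. It fell by 5.11 ± 1.40 (adjusted p = 0.0220), which became 0.0638 without vehicle sgOgfod1 replicate 2 and 0.0512 without replicate 3. Without treated sgOgfod1 replicate 4 it fell by 6.60. Alas2, the heme synthesis gene, stood at 1.04, 0.71, 2.25, 1.17 and 0.909 CPM in vehicle and ran from 0 to 0.459 with a median of 0.261 in treated mice. It fell by 2.37 ± 0.76 (adjusted p = 0.0474), close to the threshold, and leaving out any of 10 of the 11 mice gave an adjusted p between 0.0529 and 0.132. Without treated sgOgfod1 replicate 2 the adjusted p was 0.0435. Alas2 shares 311 of its 2403 exon bases with Apex2 on the opposite strand, and Smart-seq2 keeps no strand, so part of its reads can belong to Apex2.

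The remaining members did not pass in this comparison. Car2 stood at 1.85, 4.47, 5.53, 2.94 and 3.43 CPM in vehicle and at 7.90, 3.64, 7.32, 4.08, 5.61 and 6.80 in treated sgOgfod1 mice, a log2 fold change of 0.69 between overlapping groups. Klf1 lay at 0.424 to 0.660 CPM in vehicle mice, inside its range of 0 to 1.13 CPM under treatment. Ermap lay at 0.193 to 0.825 CPM in vehicle mice and at 0 to 0.640 CPM under treatment. With vehicle sgOgfod1 replicate 3 left out, 3 members remained past the threshold, namely Hbb-bs, Hbb-bt and Hba-a1. A term for library numbers of 17 and above also left these 3. All vehicle libraries have lower numbers than all treated libraries, so this term splits the treated libraries only. It cannot separate library number from treatment. In RNA of the mice that also had footprints 3 passed, namely Hbb-bs, Hba-a1 and Hba-a2.

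In sgScramble mice, treatment went with changes in 2 of the 9 genes in opposite directions. Hbb-bs stood at 0.649, 0.507, 0.373, 1.26 and 0.324 CPM in vehicle sgScramble mice and ran from 0 to 0.0726 with a median of 0.0234 in the 7 treated mice, where no library held more than 5 counts. It fell by 4.43 ± 0.88 (adjusted p = 0.00179), and all 7 treated mice lay below the 5 vehicle mice. With a term for the library numbers it was -3.46 (adjusted p = 0.0661). Over all genes, 4.34% were called lower, 8.60% higher and 12.9% in either direction. The share without overlap was 6.35% lower and 5.92% higher.

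Car2 moved the other way. It stood at 0.177, 0.210, 0.444, 0.498 and 0.162 CPM in vehicle sgScramble mice and at 1.71, 1.66, 2.76, 121, 3.58, 7.80 and 10.3 in treated mice. All 7 treated mice lay above all 5 vehicle mice, and replicate 4 lay far above the rest. Car2 rose by 6.12 ± 1.07 (adjusted p = 0.000634). Without replicate 4 the rise was 3.91 ± 0.50 (adjusted p = 2.93e-05), and in the mice with footprints it was 3.13. Hba-a1 was at -1.77 (adjusted p = 0.0985), and without replicate 4 it was -2.53 (adjusted p = 0.0113). Hbb-bt (-1.76), Hba-a2 (-1.33), Slc4a1 (-2.11), Klf1 (0.82), Alas2 (-0.32) and Ermap (-0.59) did not pass, and Klf1 was at 0.07 without replicate 4. The median of the 9 was -1.33, against -0.01 over all genes.

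Markers of other cells moved with treatment. Summed RNA of 16 macrophage genes was 887 to 1267 CPM in vehicle sgScramble mice. It was 1040 to 6780 CPM after treatment, with the highest value in replicate 4, and 15 of the 16 passed as higher. Over all genes tested 8.60% were called higher there and 4.34% lower. In sgOgfod1 mice the sum was 709 to 1055 CPM without treatment and 1002 to 2516 CPM with it, with the highest in replicate 3. There 10 of 16 passed as higher, as did 5.69% of all genes tested. Treated sgScramble replicate 4 and treated sgOgfod1 replicate 3 held 0 counts of Slc4a1, Alas2 and Ermap. Of the 14 platelet and megakaryocyte genes tested, 4 passed as higher and 1 as lower in sgScramble, and 4 as higher in sgOgfod1 mice. B cell markers summed to 72.3 to 191 CPM in vehicle mice of either guide and 24.7 to 101 under treatment, and stromal markers to 0.967 to 4.60 and 3.71 to 46.2. The B cell genes did not all move alike, as in sgScramble mice Ighm was called lower (-2.36) and Cd79a higher (1.96) in RNA. In footprints the B cell sum was 10.5 to 23.1 CPM in vehicle and 23.1 to 63.4 in treated sgOgfod1 mice. In sgScramble mice it was 15.6 to 17.2 and 8.47 to 17.7. The part of these cells in the Car2 and globin values was not tested.

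**Figure D3:**
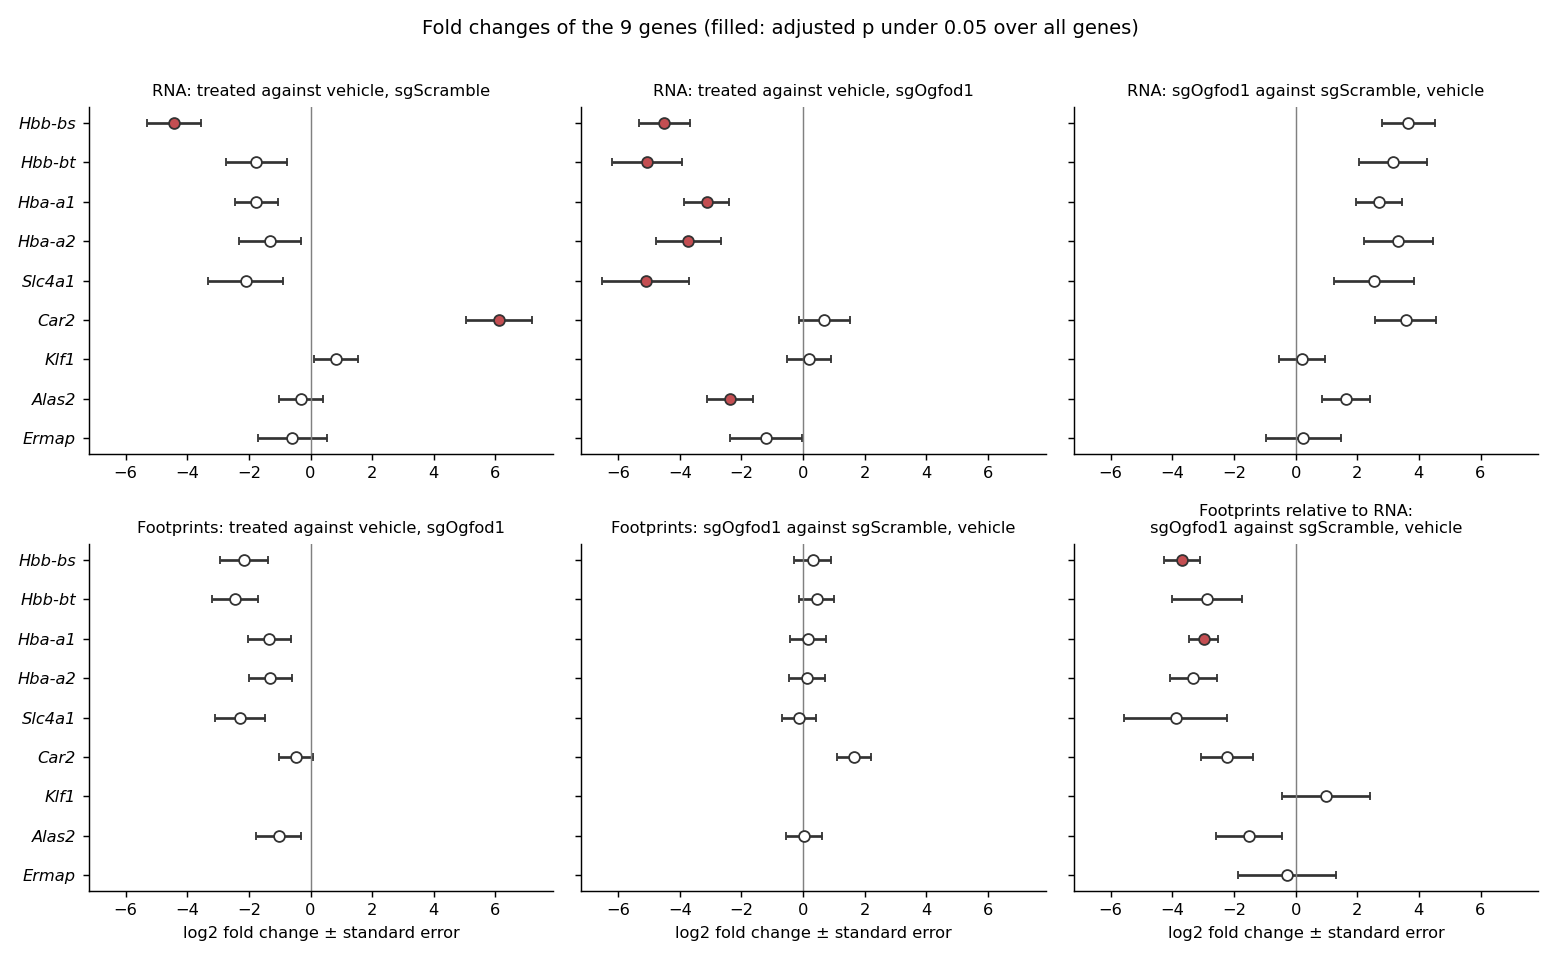
Log2 fold change with its standard error for each of the 9 genes, with filled points for an adjusted p under 0.05, in 6 panels: RNA under treatment in either guide and between vehicle guides (top), and footprints under treatment in sgOgfod1, footprints between vehicle guides and translation efficiency between vehicle guides (bottom). Under treatment in sgOgfod1 mice 6 genes are called in RNA, from -5.11 for Slc4a1 to -2.37 for Alas2, and none in footprints, where Klf1 and Ermap were not tested.

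Between guides in vehicle mice, 6 of the 9 genes were higher in every sgOgfod1 than in every sgScramble mouse, yet none passed the test over all genes. The 6 were the 4 globins, Car2 and Alas2, and 2.41% of all genes tested were likewise apart in this direction. The limit given above for low genes holds for this count too. The median log2 difference of the 9 was 2.70, against -0.01 over all genes. Few genes passed here at all, 25 of 21474 or 0.116%. For the members, 0 of 9 passed by edgeR, while 3 passed by DESeq2, namely Hbb-bs, Hba-a1 and Car2 (adjusted p = 0.00291, 0.0182 and 0.0156). Over all genes the unadjusted p was under 0.05 for 993.

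Hbb-bs was 3.66 ± 0.85 higher on the log2 scale in vehicle sgOgfod1 mice (adjusted p = 0.110), and Hbb-bt 3.15 ± 1.10 (adjusted p = 0.717). Hba-a1 was at 2.70 ± 0.76 (adjusted p = 0.310) and Hba-a2 at 3.33 ± 1.12 (adjusted p = 0.620). The values of every mouse for these genes are those given above. Car2, from 0.162 to 0.498 CPM in sgScramble and 1.85 to 5.53 in sgOgfod1 mice, was at 3.58 ± 0.99 (adjusted p = 0.295). Alas2 ran from 0.245 to 0.551 CPM in sgScramble and from 0.71 to 2.25 in sgOgfod1 mice, at 1.63. Slc4a1 overlapped, with 0.409 CPM in 1 sgScramble mouse above the lowest sgOgfod1 mouse at 0.174. The result depended on which libraries set the spread. When only the vehicle groups were fitted all 6 genes passed, with adjusted p of 0.00046 for Hbb-bs, 0.000111 for Car2, 0.00147 for Hbb-bt, 0.00149 for Hba-a1, 0.0213 for Hba-a2 and 0.0301 for Alas2. Without the 2 treated libraries standing apart, Hbb-bs (0.0104) and Car2 (0.00155) passed.

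Markers of other cell types were also read in the vehicle groups. Of these, only Mcpt8 of the mast cell and basophil list passed between guides in RNA by edgeR (2.50 ± 0.48, adjusted p = 0.0386). Over all genes tested 0.116% were called there. Summed RNA of the 6 mast cell and basophil genes ran from 61.0 to 75.1 CPM in sgScramble mice, with a median of 72.4. In sgOgfod1 mice it ran from 35.8 to 822 CPM with a median of 76.7, and the highest was replicate 4. That mouse had the lowest globin sum of its group. Platelet and megakaryocyte genes summed to 47.6 to 59.5 CPM in sgScramble and 21.7 to 36.8 in sgOgfod1 mice, so they lay lower where globin RNA lay higher. Their part in the globin difference was not tested.

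Between guides in treated mice none of the 9 passed in RNA by edgeR (84 of 21474 genes did, 0.391%, and 2768 had an unadjusted p under 0.05), and 1 passed by DESeq2, namely Hbb-bs (adjusted p = 0.00165). Hbb-bs reached at most 0.0726 CPM in treated sgScramble and 1.33 CPM in treated sgOgfod1 mice, a log2 difference of 3.59 ± 0.87 (adjusted p = 0.0608). Without treated sgOgfod1 replicate 3 the difference was 2.36 ± 0.80 (adjusted p = 0.187), and without both libraries standing apart it was 2.30 (adjusted p = 0.156). It passed when treated sgScramble replicate 4 was left out (0.0482), and without treated sgOgfod1 replicate 2 (0.0293), 5 (0.0328) or 6 (0.0391). Car2 was at -1.85 ± 0.78 (adjusted p = 0.308), and without treated sgScramble replicate 4 it was 0.35. The treatment effect was not shown to differ between guides for any member. In the interaction test 0 of 21474 genes passed by edgeR (0.0%), 975 had an unadjusted p under 0.05, and among the members Car2 passed by DESeq2 (adjusted p = 0.00909; -5.43 ± 1.26 and adjusted p = 0.622 by edgeR). Without treated sgScramble replicate 4 the Car2 interaction was -3.21 ± 0.63 (adjusted p = 0.254 by edgeR).

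**Figure D4:**
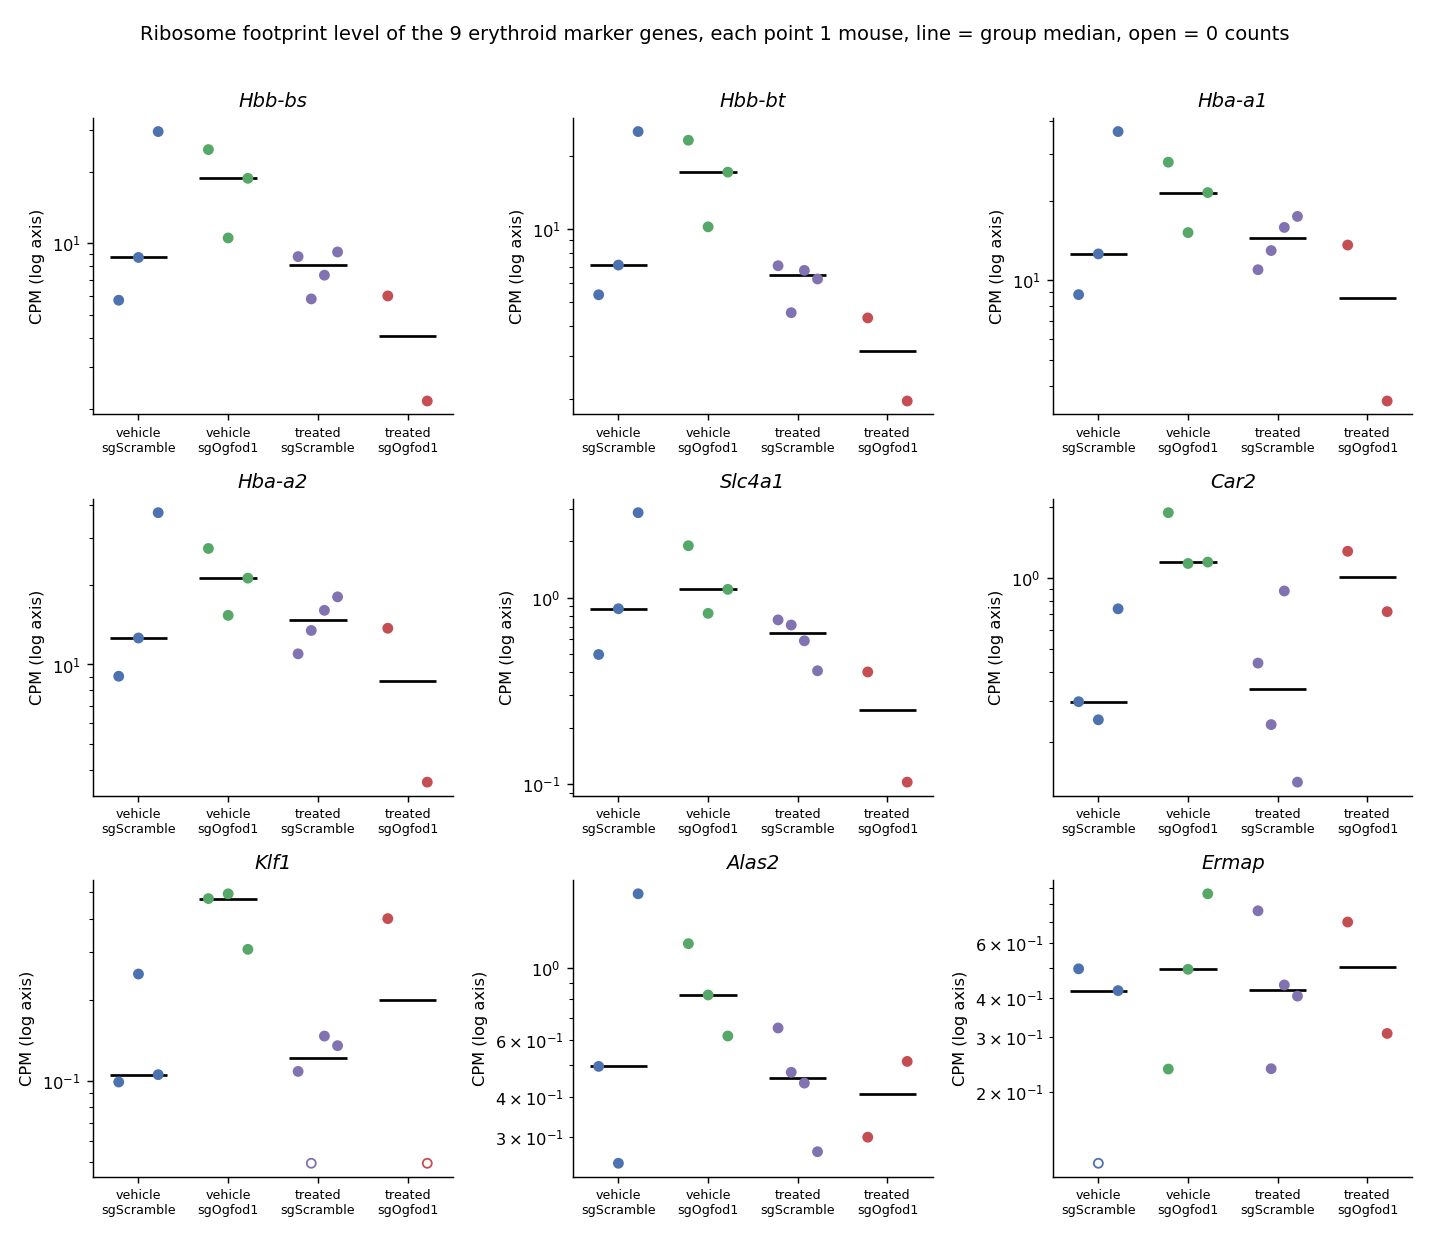
Ribosome footprint level of each of the 9 genes in CPM on a log axis, 1 point per mouse, by group, with the group median as a line and open points for 0 counts. Vehicle sgScramble replicate 5 is the highest mouse for the 4 globins, Slc4a1 and Alas2, and the treated sgOgfod1 mice lie below the vehicle sgOgfod1 mice for these 6 genes.

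Globin footprints were found in every mouse, including treated mice with almost no globin RNA. The 4 globins summed to 29.0, 41.0 and 129 CPM in the vehicle sgScramble mice and to 104, 51.3 and 78.7 in the vehicle sgOgfod1 mice. They summed to 37.8, 36.8, 46.0 and 50.9 CPM in treated sgScramble and to 37.6 and 11.2 in treated sgOgfod1 mice. The vehicle guides overlapped, and vehicle sgScramble replicate 5 was the highest library of all. Of the 9 members 7 had counts enough to be tested, while Klf1 (0 to 5 counts) and Ermap (0 to 14 counts) had not.

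No member passed in any footprint comparison by edgeR. Over all 18290 genes tested, 15.6% were called under treatment in sgScramble and 8.22% in sgOgfod1 mice. The guides differed in 1.81% of genes in vehicle and 1.58% in treated mice, and the interaction in 0.0656%. The numbers of genes with an unadjusted p under 0.05 were 5621, 4238, 3132, 2881 and 1699 in these 5 comparisons. DESeq2 called 2 members under treatment in sgOgfod1 mice, namely Hbb-bs (adjusted p = 0.0369) and Hbb-bt (0.00835). The medians of the 7 genes were -0.80 for treatment in sgScramble, -1.34 for treatment in sgOgfod1, 0.17 for guide in vehicle and -0.74 for guide in treated mice. The medians of all genes lay between -0.01 and 0.01.

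Under treatment in sgOgfod1 mice, 6 of the 7 genes tested lay lower in both treated mice than in the 3 vehicle mice, as did 19.1% of all genes, and only Car2 overlapped. Hbb-bs footprints were 24.9, 10.5 and 18.8 CPM in vehicle and 6.00 and 2.16 in treated sgOgfod1 mice, at -2.16 ± 0.78 (adjusted p = 0.136). Hbb-bt was at -2.44 ± 0.74 (adjusted p = 0.0843) and Slc4a1, with 0.824 to 1.90 CPM in vehicle mice and 0.400 and 0.103 CPM under treatment, at -2.28 ± 0.81 (adjusted p = 0.0921). The test rests on 2 treated mice, and without replicate 4 the values were -3.08, -3.12 and -3.47 for Hbb-bs, Hbb-bt and Slc4a1. In treated mice 2 of 7 genes, Hbb-bt and Slc4a1, lay lower in both sgOgfod1 mice than in the sgScramble mice, as did 11.4% of all genes.

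Of the 7 members tested in footprints, Car2 alone did not overlap between the vehicle guides. It stood at 0.298, 0.249 and 0.740 CPM in sgScramble and at 1.90, 1.15 and 1.17 in sgOgfod1 mice, and 13.3% of all genes were likewise apart in that direction. The difference was 1.66 ± 0.56 (adjusted p = 0.140) and rested on 2 to 19 counts a library, and without vehicle sgScramble replicate 5 it was 2.29. Klf1, too low to be tested, did not overlap either, at 0.0992 to 0.249 CPM from 1 to 2 counts in sgScramble and 0.308 to 0.494 from 3 to 5 counts in sgOgfod1 mice. Under treatment in sgScramble mice Car2 footprints were 0.434, 0.238, 0.881 and 0.135 CPM, overlapping vehicle, with a log2 fold change of -0.08 where the RNA had risen.

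Footprints relative to RNA in the same mouse showed how far the assays parted. Reads shared by a globin pair may have been counted differently in RNA and footprints. The part of this in the globin ratios was not tested. The ratio of globin footprint CPM to globin RNA CPM was 26.7, 39.8 and 227 in the vehicle sgScramble mice and 4.95, 7.34 and 5.43 in the vehicle sgOgfod1 mice. It was 223, 515, 312 and 71.5 in treated sgScramble and 69.0 and 75.8 in treated sgOgfod1 mice. The treated ratios divide by few RNA counts, 10, 5, 12 and 49 in sgScramble and 23 and 9 in sgOgfod1 mice. Those of the vehicle sgScramble mice divide by 62, 58 and 35 counts. The vehicle sgOgfod1 mice had the lowest ratios, below every other mouse. For the 5 other members summed, the ratio lay between 0.218 and 6.52 in all 12 mice.

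**Figure D5:**
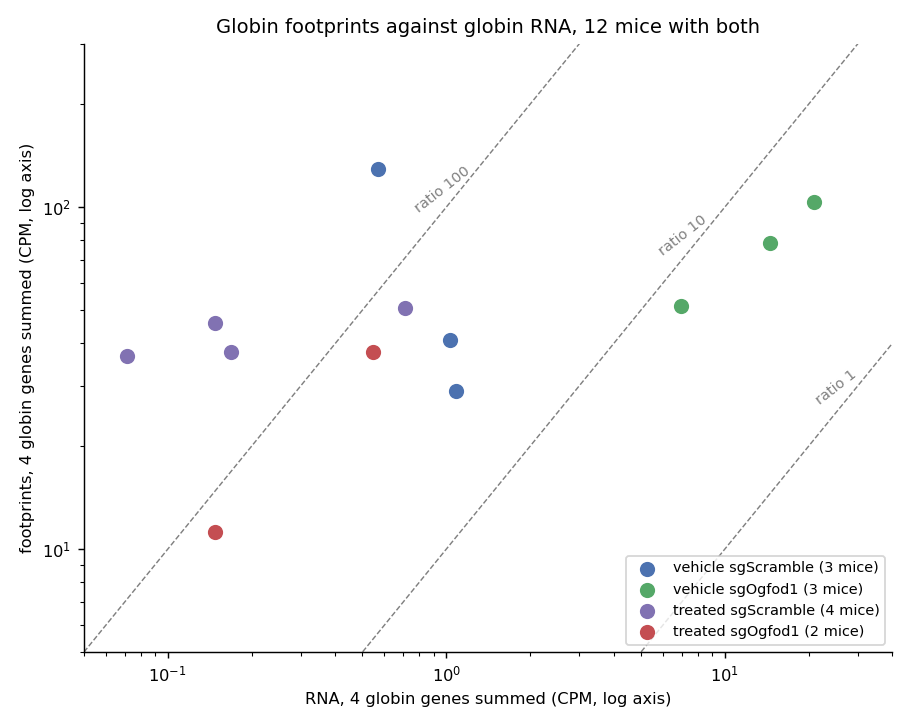
Summed CPM of the 4 globins in footprints (vertical log axis) against RNA (horizontal log axis) in the 12 mice with both assays, 1 point per mouse. RNA spreads from 0.0714 to 20.9 CPM, while footprints spread from 11.2 to 129 CPM.

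Tested as translation efficiency, meaning the change in footprints beyond the change in RNA, 2 of 9 members passed between guides in vehicle mice, both lower in sgOgfod1 mice. Hba-a1 had ratios of 38.8, 236 and 226 in sgScramble and 16, 13.3 and 15.0 in sgOgfod1 mice, at -2.98 ± 0.47 (adjusted p = 0.0123). Hbb-bs had ratios of 11.3, 23.4 and 91.6 in sgScramble and 2.08, 2.89 and 2.07 in sgOgfod1 mice, at -3.68 ± 0.59 (adjusted p = 0.0248). The groups of ratios did not overlap for either gene. The sgScramble ratios divide by few RNA counts, 13, 3 and 10 for Hba-a1 and 29, 21 and 20 for Hbb-bs. Of all 28606 genes 0.0245% were called lower and 0.0769% in either direction. The median of the 9 was -2.88, against 0.07 over all genes. Hbb-bt (-2.88), Hba-a2 (-3.32), Slc4a1 (-3.89), Car2 (-2.23), Klf1 (0.98), Alas2 (-1.51) and Ermap (-0.28) did not pass.

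These calls rested on few mice. Hba-a1 lost the call without vehicle sgScramble replicate 3 (adjusted p = 0.0576) or 5 (0.234) and without vehicle sgOgfod1 replicate 3 (0.0955). Hbb-bs lost it without vehicle sgScramble replicate 3 (0.0835) or 5 (0.102), and without vehicle sgOgfod1 replicate 3 (0.175), 4 (0.0663) or 5 (0.0599). Without vehicle sgScramble replicate 2 the values were -3.92 for Hba-a1 and -4.41 for Hbb-bs, and without replicate 5 they were -2.33 and -2.80. Without the mouse as a block neither passed (0.199 for Hba-a1 and 0.101 for Hbb-bs). With each globin pair summed, the alpha pair passed and the beta pair did not. Globin RNA did not overlap between the vehicle guides, while globin footprints did.

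No member passed for translation efficiency in the other 3 comparisons by edgeR, where 1.31% of genes were called for treatment in sgScramble, 0.0524% for treatment in sgOgfod1 and 0.0664% for guide in treated mice. The unadjusted p was under 0.05 for 3274, 1568 and 2042 genes, and DESeq2 was not run for this measure. Under treatment in sgScramble, Hbb-bs was at 2.80 ± 0.75 (adjusted p = 0.0891) and Car2 at -3.23 ± 0.87 (adjusted p = 0.0745). Without vehicle sgScramble replicate 5 Hbb-bs passed at 3.66 (adjusted p = 0.00904), without replicate 2 it was 2.02, and without treated sgScramble replicate 3 Car2 passed (0.0416). Treatment in sgOgfod1 gave Hbb-bs at 3.49 ± 0.77 (adjusted p = 0.207), Hba-a1 at 2.24 ± 0.59 (0.353) and Hba-a2 at 6.76 ± 1.65 (0.371). Hba-a2 held 0 RNA counts in the treated sgOgfod1 mice with footprints. Hbb-bt (3.40), Slc4a1 (1.16), Car2 (-0.73), Klf1 (-1.60), Alas2 (1.37) and Ermap (0.08) did not pass there either. The medians of the 9 were -0.32, 1.37 and 0.17.

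The members also differed in how they varied from library to library. Over the 23 RNA libraries Hbb-bs tracked Hbb-bt with a Spearman rho of 0.924 and Hba-a1 with 0.866, and the beta pair shares reads. Slc4a1 tracked Ermap with 0.77 and Alas2 with 0.75. Car2 lay between -0.342 and 0.159 against the 4 globins, and Klf1 between -0.201 and 0.125. Against Slc4a1, Alas2 and Ermap, Car2 was at -0.303, -0.476 and -0.339. Klf1 lay between -0.09 and 0.134 against the other members that are not globins. The 5 members that are not globins thus did not all vary together. Over the 12 mice with both assays, the rho of RNA with footprints was 0.685 for Hbb-bt, 0.552 for the 4 globins together, 0.448 for Car2 and 0.28 for Hba-a1. For Klf1 and Ermap it was negative, at -0.333 and -0.371, and for the 5 members that are not globins together it was 0.182. These correlations describe libraries that share groups and, for low genes, a few counts. The genes whose RNA was most like the mean pattern of the 5 members that are not globins were Car1 (rho 0.817), Satb1 (0.796), Fgfrl1 (0.771), Alpl (0.751) and Adgb (0.75), ahead of Frzb, Pkp2, Ebf1, Dnaaf5 and Prkca (0.724 to 0.683). Car1 is a further red-cell carbonic anhydrase. In footprints, over the 3 such members tested, Klc1 (0.888) and Adgrl1 (0.881) were nearest.

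Other genes of the red-cell program were read from 5 lists. Of 18 membrane and skeleton genes 15 were tested in RNA, and under treatment in sgOgfod1 mice 2 fell, namely Kel, a blood group protease (-6.23 ± 1.91, adjusted p = 0.0459), and Epb41, the protein 4.1 gene (-0.44 ± 0.14, adjusted p = 0.0430), where 9.87% of all genes were called. The list median was -0.44. In footprints 6 were tested there and Epb41 fell by 0.49 ± 0.13 (adjusted p = 0.0285), against 8.22% of all genes called. Neither treatment in sgScramble nor guide in vehicle mice gave a call in this list, with RNA medians of -0.47 and 0.17.

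All 14 heme synthesis and iron import genes other than Alas2 were tested. Steap3, a ferrireductase of the transferrin cycle, fell under treatment in sgOgfod1 mice by 1.08 ± 0.18 (adjusted p = 0.000578), the only RNA call in the list in the treatment comparisons and between vehicle guides. The background there was 9.87%. In footprints under treatment in sgScramble, Tfrc, the transferrin receptor, rose by 0.54 ± 0.14 (adjusted p = 0.0138) and Cpox, a heme synthesis enzyme, fell by 0.50 ± 0.16 (adjusted p = 0.0435), where 15.6% of all genes were called. Tfrc footprints were also higher in vehicle sgOgfod1 than in vehicle sgScramble mice, by 0.61 ± 0.14 (adjusted p = 0.0400), against a background of 1.81%. The RNA medians were 0.04 and -0.06 under treatment in sgScramble and sgOgfod1 mice and 0.08 between vehicle guides.

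Of 13 erythroid transcription factors and receptors 12 were tested in RNA, and Epor, the erythropoietin receptor, rose under treatment in sgScramble by 4.50 ± 1.04 (adjusted p = 0.00576), where 12.9% of all genes were called. Myb footprints fell under treatment in sgOgfod1 by 0.37 ± 0.11 (adjusted p = 0.0473), where the background was 8.22%. Of 14 late erythroblast genes 9 were tested, and Blvrb, a biliverdin reductase, rose under treatment in sgScramble by 1.02 ± 0.33 (adjusted p = 0.0409), against the same 12.9%. Epor and Blvrb were not checked without treated sgScramble replicate 4. No gene of either list passed in RNA under treatment in sgOgfod1 mice or between vehicle guides. Of 11 other globin genes and pseudogenes 10 matched a gene, and none had counts enough to be tested in either assay.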

How the data were processed

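Values are whole-number counts of reads per gene, as deposited by the authors, for 23 Smart-seq2 RNA and 12 footprint libraries. Each library came from 1 mouse per the labels. The builds GRCm38 and mm10 and the tools featureCounts, STAR, Bowtie2, cutadapt and SAMtools are named per the submitters' processing notes. Tool versions, strandedness and how multiply mapped reads were counted are not given in the sources used here. Symbols were matched for 55141 of 55487 gene identifiers, and coordinates came from a GRCm38 annotation. Every deposited column was used (0 left out).

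Tests used edgeR 4.0.16 (limma 3.58.1, R 4.3.3) with TMM scaling, filterByExpr (minimum count 10) and its quasi-likelihood test, with Benjamini-Hochberg adjustment over all genes and a threshold of 0.05. Each assay had 1 fit over its 4 groups (residual degrees of freedom: RNA 19, footprints 8). Translation efficiency was the assay-by-group term over the 12 mice with both assays, blocked by mouse (8 residual degrees of freedom). RNA and footprints of 1 mouse share group and replicate number in the titles. CPM use TMM-scaled totals. Fitted fold changes of genes near 0 depend on a small prior count. Separate animals are replicates, but all leukemia cells came from 1 source, and p-values measure the spread between these mice. The scripts were tested on simulated data.

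DESeq2 1.42.0, other scalings and filters, blocks and left-out libraries were tried as alternatives. Replicate numbers were checked for pairing across groups, and they do not pair mice. No replicate pair held identical values. The members and lists were chosen with earlier results of these data known. The plan was to name all 9 members in each comparison. In some comparisons the text leaves out members that did not pass. The text also names up to 4 called genes per further erythroid list by smallest p, and the 10 genes nearest in pattern in RNA. Protein sequences were not used here.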

Additional observations from a re-analysis of the deposited data

Results flagged for a closer look

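Of 45 combinations of gene, assay and group with 4 to 10 libraries, 8 had an extreme library whose gap to the nearest other was a large part of the range by Dixon's test. The test's rate of about 1 in 20 by chance holds for normally distributed values. CPM near 0 are not so distributed, so the 8 of 45 cannot be set against that rate. All 8 were the highest RNA value of their group. Treated sgScramble replicate 4 held 3 of them, namely Car2 at 121 CPM (nearest 10.3), Klf1 at 2.93 CPM (nearest 0.942) and Hba-a1 at 0.233 CPM from 12 counts (nearest 0.0508). Its summed macrophage markers were 6780 CPM, the highest of all RNA libraries, and their part in these values was not tested. Hbb-bt reached 0.566 CPM from 39 counts in treated sgScramble replicate 5 (nearest 0.0678), where Hbb-bs held 5 counts. Hbb-bs reached 1.33 CPM in treated sgOgfod1 replicate 3 (nearest 0.382). Hba-a2 reached 2.36 CPM in vehicle sgOgfod1 replicate 3 (nearest 1.02), the mouse with the highest globin sum. Ermap reached 1.60 CPM from 90 counts in vehicle sgScramble replicate 3 (nearest 0.118). Slc4a1 reached 0.119 CPM from 5 counts in treated sgOgfod1 replicate 4 (nearest 0.0328).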

How the results depend on the processing

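Counts of members past the threshold kept within 1.5 times of the reported count in 224 of 255 alternatives. The reported count was 0 in most comparisons, so most of the 224 are counts that stayed at 0. For translation efficiency between vehicle guides, where members were called, the count moved in most alternatives. With DESeq2, 3 members passed between guides in vehicle RNA, 1 between guides in treated RNA, 1 in the RNA interaction and 2 in footprints under treatment in sgOgfod1. With a term for library numbers, 1 passed in RNA under treatment in sgScramble and 3 in sgOgfod1. Without the 2 libraries standing apart, 2 passed between guides in vehicle RNA. In RNA of mice with footprints, 3 passed under treatment in sgOgfod1 and 2 between vehicle guides, and with only the compared groups 6 passed between vehicle guides. With no filter on low counts, 1 passed in footprints under treatment in sgOgfod1, and for translation efficiency 2 passed under treatment in sgScramble, 4 in sgOgfod1, 4 between vehicle and 1 between treated guides. With protein-coding genes only, 1 passed for translation efficiency under treatment in sgScramble and 1 in sgOgfod1. Between vehicle guides, 1 passed for translation efficiency with globin pairs summed and 0 with no replicate block. The cause was not tested.

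Leaving out 1 library gave 3 to 6 members in RNA under treatment in sgOgfod1, 0 to 1 between treated guides, and for translation efficiency 0 to 2 between vehicle guides and 0 to 1 under treatment in sgScramble. The direction of Car2 between treated guides in RNA reversed to 0.28 without the 2 libraries standing apart, to 1.00 in mice with footprints and to 0.35 without treated sgScramble replicate 4, the upper end of a range from -2.06 on leaving out 1 library. Same-numbered mice deviated together in 7 of 31 RNA and 0 of 11 footprint pairs (correlation over 0.1), and 37 of 166 and 4 of 42 differently numbered pairs did so. With the replicate block in RNA, 2 members passed under treatment in sgScramble and 4 in sgOgfod1. TMM over both assays together and the level per kb without treated sgScramble replicate 4 were alternatives chosen after seeing the data. Genes called between vehicle guides in RNA numbered 25, against 497 with only those groups, 115 with DESeq2 and 88 without the 2 libraries. Depth limits Klf1 and Ermap in footprints and the globins and Slc4a1 in treated RNA.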
